A study of Mus musculus with 20 samples.

Results

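The transcripts described here are those of the histone genes of the mouse, read on 49 probe sets of an expression array in fetal liver erythroid progenitors (CFU-E, the stage that forms small red cell colonies). A probe set was taken by its annotated symbol: any symbol starting with H1f, H2ac, H2bc, H2ax, H2az, H2af, H3c, H3f, H4c or Hist put it in the group, out of 45037 probe sets in all. The 49 probe sets name 60 genes of the 19324 gene symbols on the array. Of these genes, 50 are replication-dependent cluster genes, named by 30 probe sets, and 10 are replacement or other variants, named by 19 probe sets. The group was chosen by symbol, but it was proposed with the differences between the series with and without erythropoietin (Epo) already known for H3c4 and H3c7. The difference between the series at 0 h was known as well. Differences between the series at matched hours are therefore given as a description, with no test.

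Cells came from livers of BALB/c embryos at embryonic day 13.5. Red cells were lysed, and cells carrying TER119 or markers of other blood lineages were removed with magnetic beads, so the sample is what this negative selection left. Per the labels, the sorted cells spent 1 h of starvation in Panserin medium (with BSA and β-mercaptoethanol); one series then received Epo at 0.5 U/ml and the other received none. Another part of the labels instead describes culture of the sorted cells with serum and Epo beforehand, so the state of both series at 0 h is not settled. The series with Epo has 12 arrays (hourly from 0 to 8 h, then 14, 19 and 24 h) and the series without Epo has 8 (hourly from 0 to 7 h). Each treatment and hour has 1 array, and precision is limited by how few arrays there are. The labels do not say that the hours were separate cultures, so p-values measure the scatter of arrays around a time course, which may be technical. No genotype other than the strain is given, and animals per array are not stated.

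Replication-dependent histone genes lie in clusters and supply the core histones H2A, H2B, H3 and H4 and the linker histone H1 that package newly made DNA, so their messages peak in S phase. Most of these messages end in a stem-loop bound by the protein SLBP, and not in a poly(A) tail, while replacement variants such as H2A.Z and H3.3 are made throughout the cell cycle from ordinary polyadenylated messages. Labelling of RNA for arrays of this kind usually starts from the poly(A) tail, so signal for a cluster gene can depend on the minor polyadenylated share of its message. In the erythroid line, cells at the CFU-E stage divide rapidly and depend on Epo.

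Of the 60 genes, 43 lie on chromosome 13 and 9 on chromosome 3 (assembly GRCm38.p6), with 42 and 8 of the replication-dependent genes among them. Promoters are shown for 4 genes of the chromosome 13 cluster whose probe sets followed different courses below: H3c11 and H2bc22, H3c4, and H1f2. Each line gives the 150 bases before an annotated transcript start, from RefSeq's promoter table of that assembly, 5′ to 3′ on the strand of the gene. Capitals mark matches, on either strand, to the CCAAT box, to TATAAA or to AAACACA, a motif known from H1 promoters.
H3c11, chr13:21783398-21783547, minus strand: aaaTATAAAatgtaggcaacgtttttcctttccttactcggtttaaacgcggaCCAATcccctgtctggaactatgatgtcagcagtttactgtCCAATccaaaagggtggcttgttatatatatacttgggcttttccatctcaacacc
H2bc22, chr13:21787338-21787487, plus strand: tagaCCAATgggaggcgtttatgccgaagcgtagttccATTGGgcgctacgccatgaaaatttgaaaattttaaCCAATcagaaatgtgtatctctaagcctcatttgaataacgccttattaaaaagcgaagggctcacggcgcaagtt
H3c4, chr13:23575613-23575762, plus strand: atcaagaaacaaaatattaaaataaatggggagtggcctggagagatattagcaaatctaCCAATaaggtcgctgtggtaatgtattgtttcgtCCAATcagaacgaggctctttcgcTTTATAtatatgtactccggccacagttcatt
H1f2, chr13:23738657-23738806, plus strand: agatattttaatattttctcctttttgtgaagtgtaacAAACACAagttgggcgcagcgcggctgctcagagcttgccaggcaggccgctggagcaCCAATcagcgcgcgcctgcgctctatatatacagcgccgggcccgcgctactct

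CCAAT was the common feature of these sequences. H3c11 held 2 copies, H2bc22 held 3, H3c4 held 2 and H1f2 held 1. Over the 250 bases before the start, CCAAT stood in 36 of 46 promoters of replication-dependent member genes (78.26%), in 6 of 9 promoters of variants (66.67%) and in 33.85% of all 32851 promoters in the table. Within the replication-dependent class it was in 2 of 2 H1, 12 of 12 H2A, 11 of 11 H2B and 8 of 10 H3 promoters. Of the 11 H4 promoters only 3 held it (27.27%), a share below that of all promoters. TATAAA stood in 41.3%, 11.11% and 12.37%, and the octamer ATTTGCAT in 17.39%, 11.11% and 1.6%. The octamer was in 4 of 12 H2A and 4 of 11 H2B promoters and in none of the 10 H3 or 11 H4 promoters of the class. TTTGGCGC, an E2F-type site, was in 0 of the 46 and 0 of the 9 promoters and in 0.42% of all, and AAACACA was in 8.7%, 22.22% and 6.25%. Within the replication-dependent class AAACACA was in 2 of 2 H1, 1 of 12 H2A and 1 of 11 H2B promoters, and in 0 of the H3 and H4 promoters. Both strands were searched and no motif contains another. An entry was matched for 45 of the 50 replication-dependent genes, 1 of them with several starts, and for 9 of the 10 variants. The 6 genes not matched in the table were H2ax, H2bc4, H2bc21, H3c1, H3c7 and H4c14.

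The 20 arrays had medians of 3.92 to 4.15 on the log2 scale. The Epo array of 24 h stood apart with the narrowest spread of values (SD 2.31, against up to 2.57 elsewhere) and the lowest median correlation with the other arrays (0.941). Late counts are therefore given with and without it, and values of single sets include it unless stated. Erythroid markers were above the median probe set in 8 of 9 genes measured (Gata1, Klf1, Epor, Tfrc and others), while the probe set of Hba-a1 stayed at 3.19 to 3.80. Hepatocyte transcripts were present too: the mean of 8 marker genes ranged from 5.04 to 10.65 with Epo and from 7.41 to 9.36 without. Of the 8 markers 7 were above the median probe set, with Alb at up to 13.16. Apob, with a mean of 3.88 and a highest value of 5.85, was not. Lymphoid markers were above the median probe set in 1 of 7 genes, and endothelial and stromal markers in 2 of 6. Granulocyte markers averaged 4.83 to 5.42 with Epo and 4.91 to 6.46 without.

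Which gene a histone probe set reads was often not unique. One symbol stood on 25 of the 49 probe sets and several on 24, since coding regions of the copies are nearly the same. A single H3 annotation of 12 cluster genes stood on 2 probe sets, another of 8 genes on 2, and an H4 annotation of 12 H4c genes and H4f16 on 5. These sets are named below by their number and histone type. H1f0, the linker variant of differentiating cells, has no probe set named for it here. No filter on low signal was used, and 11 of the 49 lay below the median probe set mean of 4.02.

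**Figure D1:**
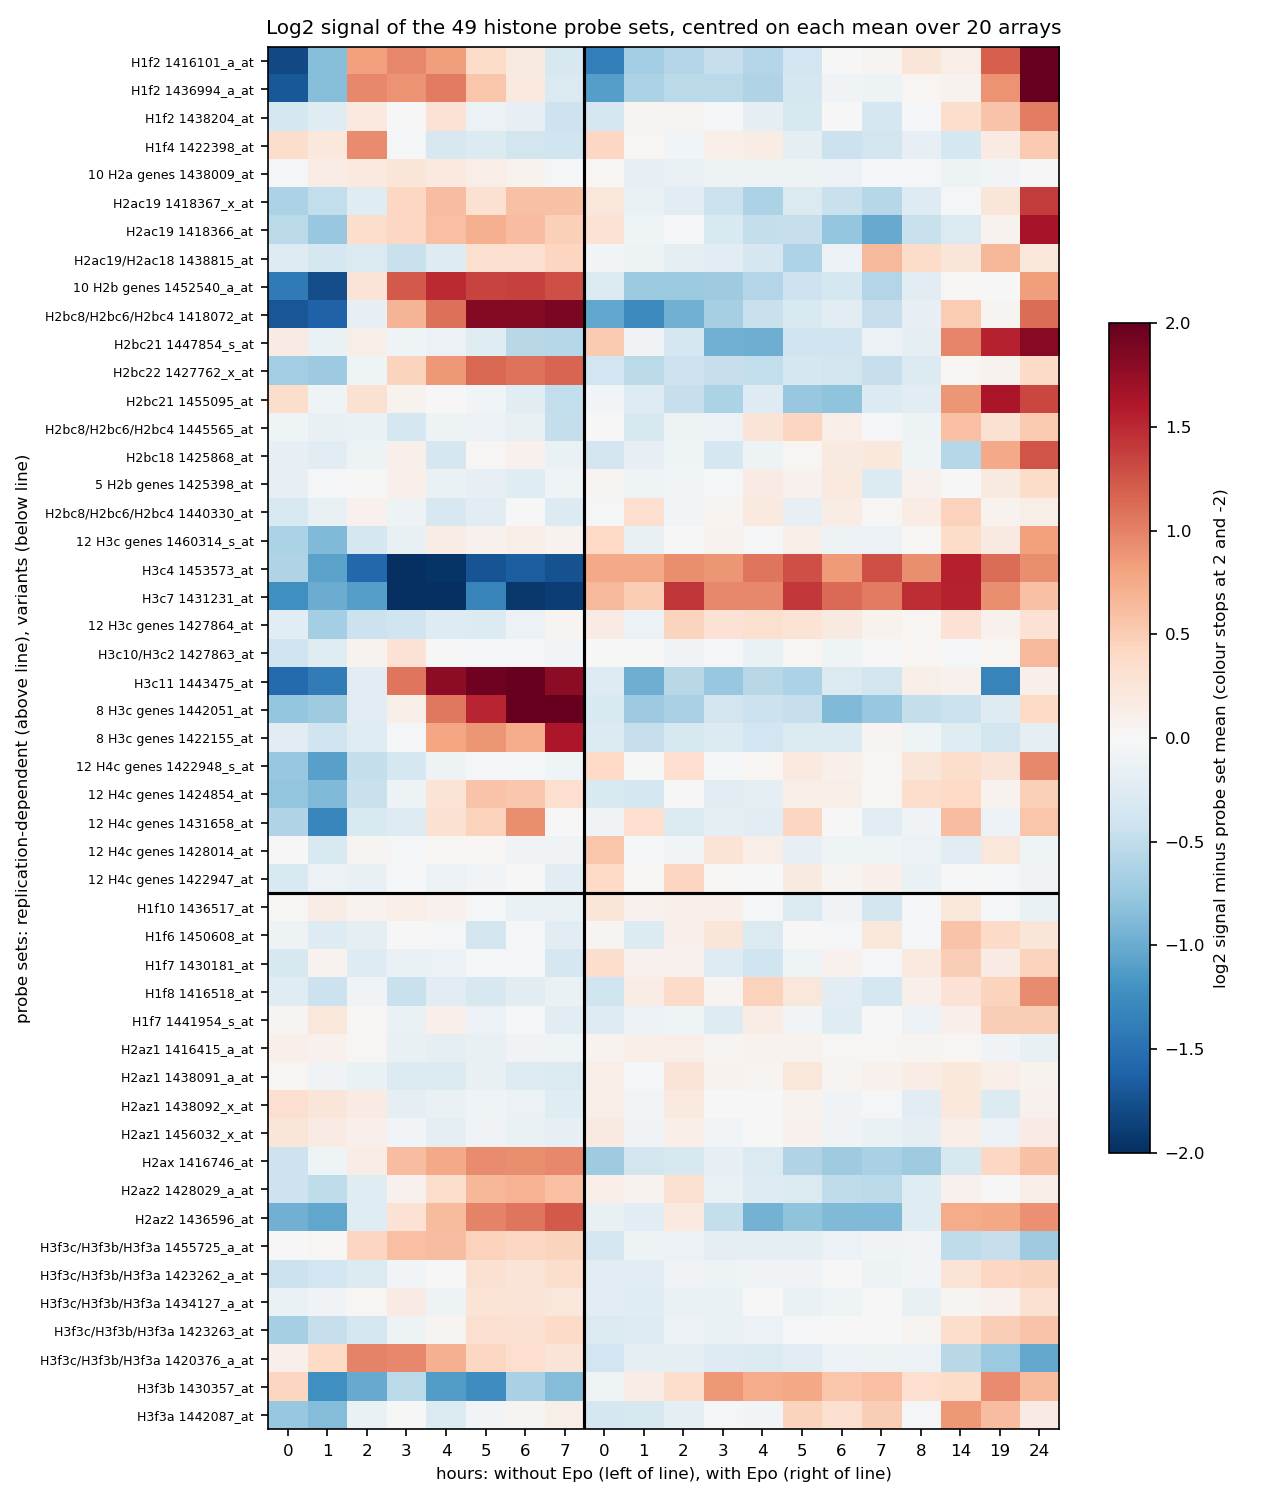
Each row is 1 of the 49 histone probe sets and each column 1 of the 20 arrays; colour gives log2 signal minus the mean of that row, and lines separate the series and the classes. H3c11, the 8-gene H3 sets and several H2B sets turn red in the later hours without Epo, whereas H3c4 and H3c7 are blue in all 8 arrays without Epo and red in all 12 with Epo.

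Without Epo, histone transcripts rose over the hours on 21 of 49 probe sets and fell on 4. Across all probe sets 10.6% rose and 9.65% fell at the same threshold, an adjusted p under 0.05 for a linear slope from 1 to 7 h (limma, Benjamini-Hochberg over all 45037). Among replication-dependent sets 14 of 30 rose and 2 fell, and among variants 7 of 19 rose and 2 fell. The median slope was 0.021 log2 units per hour for the first class and 0.026 for the second, against -0.0026 over all probe sets. Not called were 14 replication-dependent and 10 variant sets.

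Core histone H3 was read on 8 replication-dependent sets, of which 5 rose and 0 fell without Epo, with a median slope of 0.12. Not called were the single-gene sets of H3c7 (-0.13 ± 0.057; limma, adjusted p = 0.130) and H3c4 (-0.065 ± 0.043; limma, adjusted p = 0.364), and 1427863_at. H3c11, a cluster gene read on a probe set of its own, had levels without Epo of 3.34 at the lowest, 6.32 at the median and 6.90 at the highest over 8 arrays. The 2 low arrays were those of 0 and 1 h, at 3.34 and 3.50, and those of 4 to 7 h lay between 6.68 and 6.90. Its slope was 0.53 ± 0.073 (SE) per hour (limma, adjusted p = 1.87e-05). The 8-gene H3 set 1442051_at, which lists H3c4 and H3c7 among its copies, stood at 2.67 at 0 h, 4.49 at 4 h and 5.76 at 7 h. It was higher at each hour than at the one before, with a slope of 0.54 ± 0.034 (adjusted p = 5.47e-09). The other probe set with the same 8 symbols, 1422155_at, reached 4.51 at 7 h from 2.66 at 0 h, at 0.32 ± 0.035 per hour (adjusted p = 1.33e-06). Both 8-gene sets lay below the median probe set over the 20 arrays, with means of 3.44 and 2.89 against 4.02, so the size of their slopes is uncertain near background.

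H2B pairs with H2A in the nucleosome. Of 9 replication-dependent H2B sets 3 rose and 0 fell, with a median slope of -0.024. The set 1418072_at (H2bc4, H2bc6 and H2bc8) had a lowest level of 6.90, a median of 9.51 and a highest of 10.50 without Epo. It stood at 6.99 at 1 h and at 10.46, 10.45 and 10.50 at 5, 6 and 7 h, so the climb ended by 5 h. The slope was 0.56 ± 0.059 per hour (limma, adjusted p = 9.4e-07). Of the 2 other sets with these 3 symbols, 1445565_at and 1440330_at, neither was called. The set 1452540_a_at, which lists 10 H2bc genes, moved from 8.34 at 1 h to 11.34 at 3 h and then stayed between 11.39 and 11.61, with a slope of 0.41 ± 0.084 (adjusted p = 0.00109). H2bc22 on set 1427762_x_at, named here after its values were seen, stood at 4.42 and 4.38 at 0 and 1 h. From 5 h on it lay between 6.20 and 6.28, with a slope of 0.31 ± 0.040. The set 1452540_a_at lists H2bc22 too, and which copies either set reads was not examined. H2bc21, an H2B gene with 2 sets of its own, was not called (slopes of -0.10 and -0.084). Neither H2bc18, with 1 set of its own (0.023), nor 1425398_at (-0.030) was called.

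Of 4 replication-dependent H2A sets 3 rose and 1 fell, with a median slope of 0.16, and of 5 H4 sets 3 rose and 0 fell, with a median of 0.15. H2ac19 of the chromosome 3 cluster had slopes of 0.16 ± 0.047 and 0.17 ± 0.039 on its 2 sets, with levels on the first of 5.19 at 1 h and 6.66 at 5 h. The other H2A set that rose, 1438815_at, lists H2ac18 and H2ac19. Its mean of 2.78 lay below the median probe set (4.02), so the size of its slope is uncertain near background. That call was lost under 2 alternative settings (limma, adjusted p of up to 0.0682). On the 13-symbol H4 annotation, 3 of 5 sets rose: 1431658_at at 0.25, 1424854_at at 0.22 ± 0.038 and 1422948_s_at at 0.15 ± 0.032 per hour. The H2A set 1438009_at, which lists 10 genes, lay between 14.19 and 14.47 without Epo, near the upper end of the table's range at 14.53. Its called fall of 0.031 per hour was lost under 9 alternative settings.

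Of 4 replication-dependent sets of the linker histone H1, 0 were called higher by the linear slope and 1 lower. H1f4 fell by 0.17 ± 0.043 per hour (limma, adjusted p = 0.00756), from a highest level of 4.15 at 2 h to 2.80 at 7 h. Its set lay below the median probe set (mean of 3.20 against 4.02), so the size of this fall is uncertain near background. H1f2, an abundant H1 subtype of dividing cells, peaked early: set 1416101_a_at stood at 7.66 at 0 h, 10.29 at 2 h, 10.42 at 3 h and 9.14 at 7 h. Set 1436994_a_at stood at 6.62, 9.26, 9.21 and 8.02 at the same hours. A straight line does not describe such a course, and neither slope was called (-0.012 and -0.0060 per hour).

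Among the variants, H2ax and H2az2 rose. H2ax encodes H2A.X, which is phosphorylated at DNA breaks and whose message is known in both stem-loop and polyadenylated forms. Its level without Epo was 10.24 at the lowest, 11.34 at the median and 11.61 at the highest, with values from 11.41 to 11.61 at 4 to 7 h. The slope was 0.18 ± 0.026 per hour (limma, adjusted p = 3.94e-05). H2az2, one of the genes for the replacement variant H2A.Z, stood on set 1436596_at at 5.35 at 1 h and 7.61 at 7 h, with a slope of 0.36 ± 0.045 (adjusted p = 6.07e-06). Its second set, 1428029_a_at, rose by 0.21 ± 0.027 per hour. H2az1, the other H2A.Z gene, did not follow: 1438092_x_at fell by 0.069 ± 0.019 per hour and 1456032_x_at, which also lists Gm8203, by 0.052, while 1438091_a_at was not called. The fall of 1456032_x_at was lost under 10 alternative settings and that of 1438092_x_at under 4.

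The replacement histone H3.3 comes from H3f3a and H3f3b, and its probe sets did not agree among themselves. H3f3a alone rose by 0.12 ± 0.037 per hour (limma, adjusted p = 0.0292), and 3 of the 5 sets that list H3f3a, H3f3b, H3f3c and predicted genes rose by 0.052 to 0.15. H3f3b on its own set was not called (0.039 ± 0.044). Linker variants were not called: H1f10 had a slope of -0.049 ± 0.029.

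Without the arrays of 1 h, 13 of 49 members were called higher, and the share of all probe sets called was not computed. The calls lost were both H2ac19 sets, the H4 sets 1422948_s_at and 1431658_at, the 12-gene H3 sets 1460314_s_at and 1427864_at, H3f3a and the shared H3.3 set 1434127_a_at. Beside these slopes, the mean of the hepatocyte markers differed by -1.44 between 7 h and 1 h without Epo, that of the granulocyte markers by -0.82 and that of the erythroid markers by 0.89. Their part in the histone slopes was not tested. In bulk samples, fewer cells of a type and less RNA per cell cannot be told apart.

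**Figure D2:**
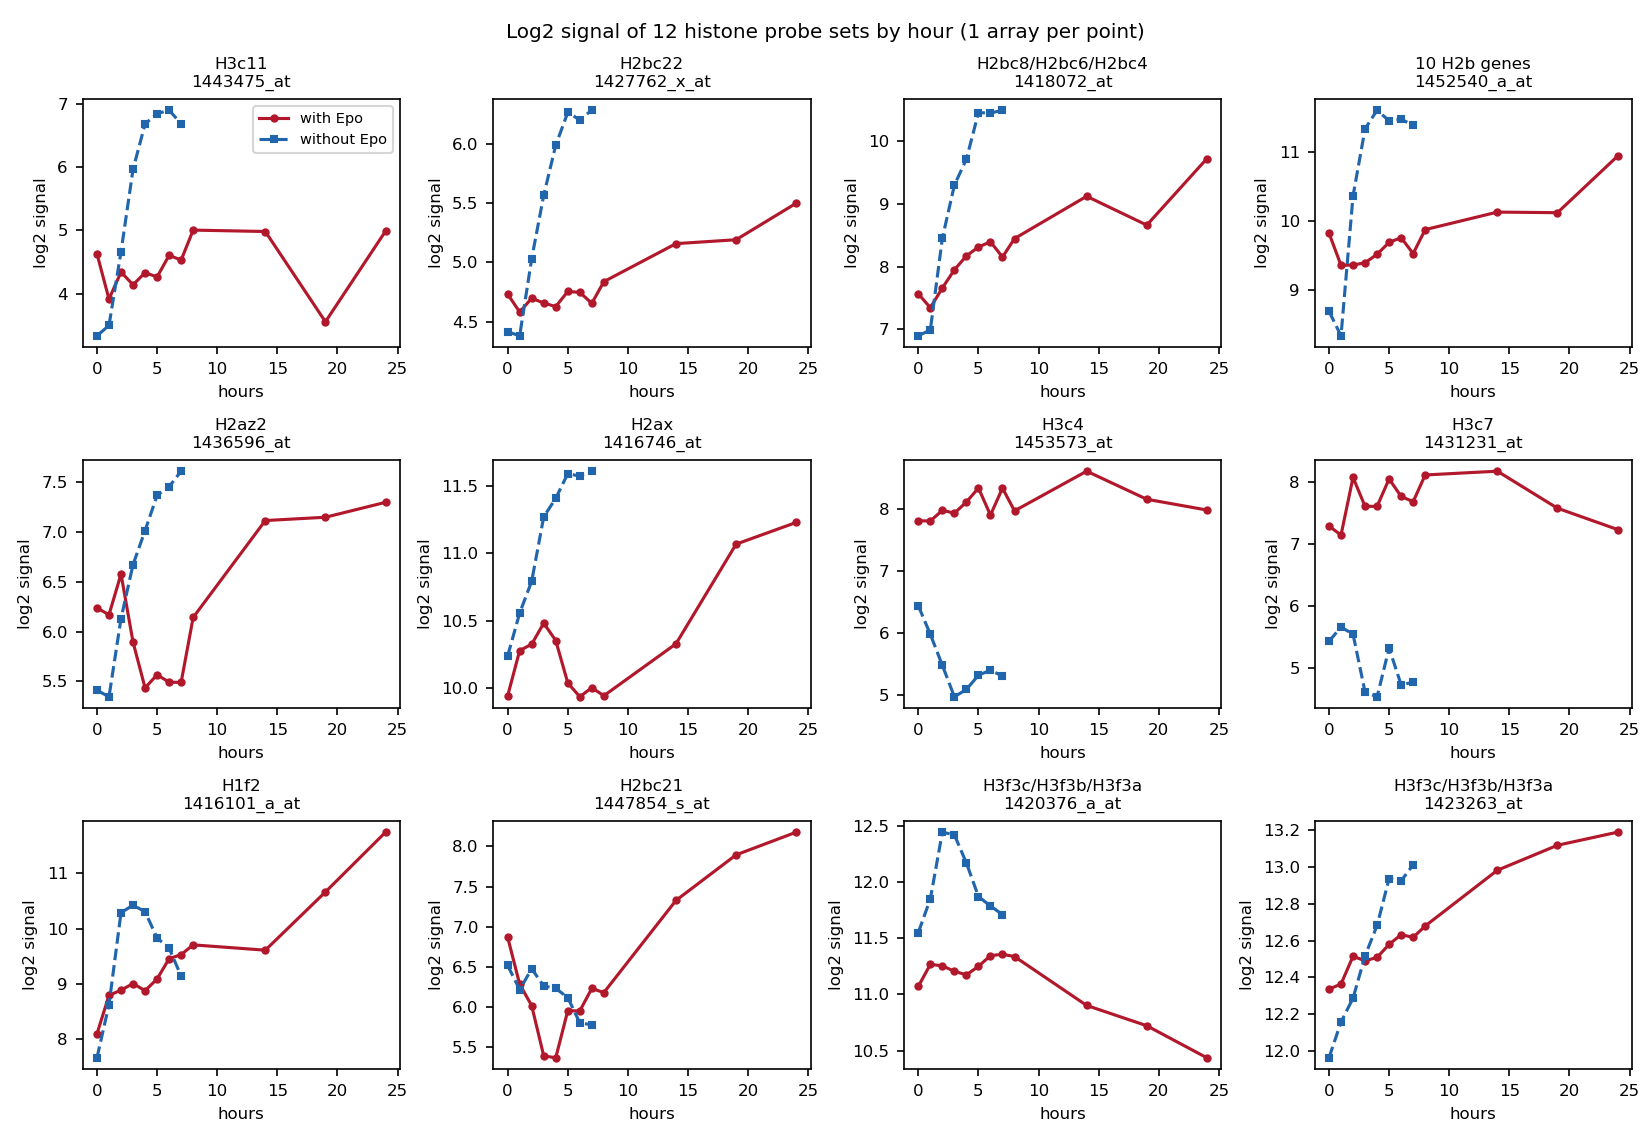
Log2 signal (vertical axis, scaled separately in each panel) against hours (horizontal axis) for 12 histone probe sets; red circles are arrays with Epo and blue squares arrays without, 1 array per point. H3c11, H2bc22 and the H2B sets of several genes start lower without Epo at 0 h and end above the Epo series by 7 h. H2bc21 without Epo is below the Epo series at both 0 and 7 h. H1f2 without Epo peaks at 10.42 at 3 h, and H3c4 and H3c7 keep the series apart at all hours.

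With Epo, few histone sets had a slope between 1 and 7 h. One member was called higher, H3f3a at 0.14 ± 0.037 per hour (limma, adjusted p = 0.0347), where 1.79% of all probe sets were called higher. Both H2az2 sets fell, by 0.16 ± 0.045 (adjusted p = 0.0466) and 0.13 ± 0.027 (adjusted p = 0.00748), where 2.43% of all were called lower. No replication-dependent set was called in either direction. H2az2 on set 1436596_at stood between 6.17 and 6.58 at 0 to 2 h and between 5.43 and 5.57 at 4 to 7 h with Epo. H3c11 over 0 to 8 h with Epo ranged from 3.92 to 5.01 around a median of 4.34, and H2ax from 9.94 to 10.48 around 10.04. None of these 3 calls held under every alternative: the fall of H2az2 was lost without the 2 h arrays (adjusted p = 0.254 and 0.0606), as was the rise of H3f3a (adjusted p = 0.0809).

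The slopes were then compared directly, as the slope with Epo minus the slope without. The difference was called below 0 on 14 of 49 members and above 0 on 1, where 4.89% and 4.91% of all probe sets were called in these directions. Replication-dependent sets made up 9 of the 14 and variants 5. The 8-gene H3 set 1442051_at lay at -0.56 ± 0.049 per hour (limma, adjusted p = 1.37e-06), but with Epo it stood at 2.56 to 3.07 at 1 to 7 h, below the median probe set, so the size of the difference is uncertain. H2az2 lay at -0.52 ± 0.064 and -0.33 ± 0.038, and the H2B set 1418072_at lay at -0.41 ± 0.083 (adjusted p = 0.00297).

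H3c11 lay at -0.44 ± 0.104 (limma, adjusted p = 0.00801), a call that ended without the arrays of 1 h (adjusted p = 0.072) or 2 h (adjusted p = 0.051). H2ac19 had differences of -0.32 ± 0.066 and -0.23 ± 0.055, and the second was not called without 1 h (adjusted p = 0.131). H2bc22 lay at -0.30 ± 0.056 and H2ax at -0.25 ± 0.037. For H3c4 and H3c7 the differences of 0.13 ± 0.060 and 0.18 ± 0.080 were not called. The 1 call above 0 was that of the H2A set 1438009_at (0.044 ± 0.013), which was lost under 12 alternative settings. With the hour as a block, 17 members were called below 0 and 1 above. The share of all probe sets called was not computed under this setting, so these counts have no share to be read against.

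**Figure D3:**
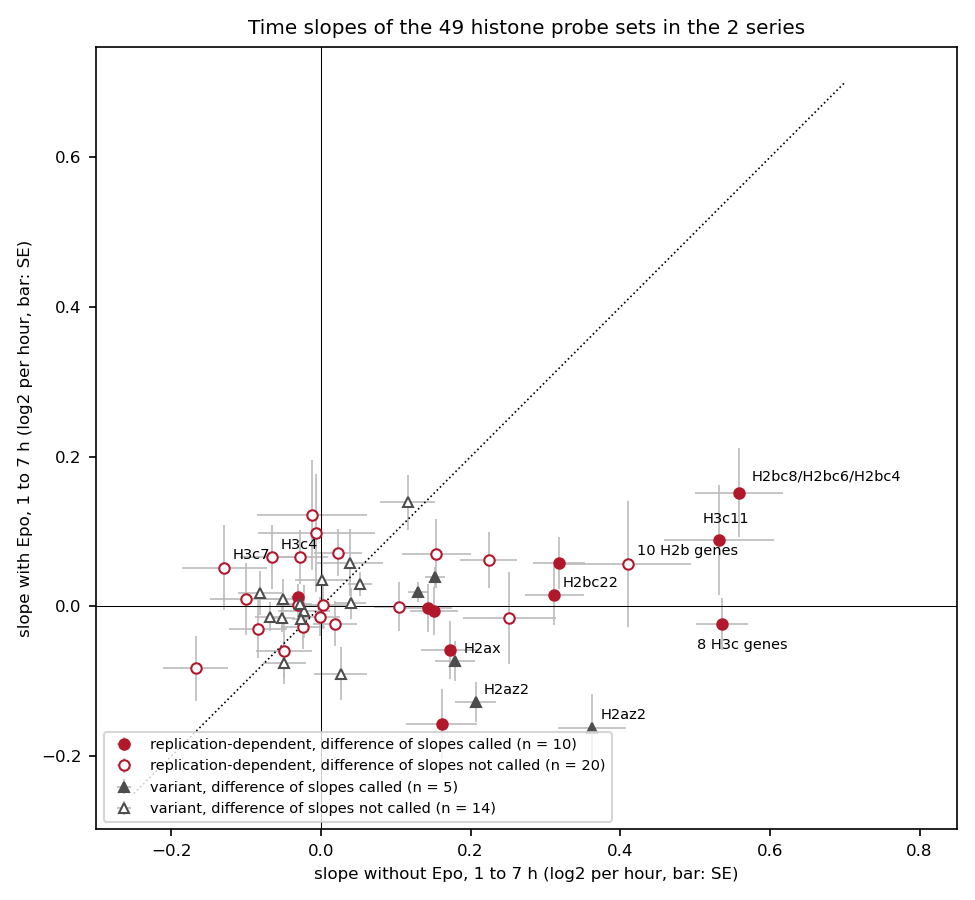
Each point is 1 of the 49 histone probe sets, with its slope without Epo on the horizontal axis and with Epo on the vertical axis (log2 units per hour from 1 to 7 h, bars are SE); filled symbols mark a called difference of the slopes and the dotted line marks equal slopes. The 2 H3 and H2B sets furthest right, at 0.54 and 0.56 without Epo, lie far below the dotted line, and H2az2 lies on opposite sides of 0 in the series.

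Late in the series with Epo, histone transcripts were higher than early. The mean of 14, 19 and 24 h was above that of 1 to 8 h on 22 of 49 members and below it on 2, where 13.6% and 14.6% of all probe sets were called in these directions (limma, adjusted p under 0.05). All 14 called replication-dependent sets of 30 were higher, with a median difference of 0.43 over the class. Of 19 variant sets 8 were higher and 2 lower, with a median of 0.27, and the median over all probe sets was 0.071. Of these 8, 3 were linker H1 variants of low signal: H1f6 (1450608_at) and H1f7 (1430181_at and 1441954_s_at). Their means over the 20 arrays were 4.45, 4.36 and 2.36, where the median probe set mean was 4.02. Their calls were lost under 10, 8 and 1 alternative settings. Without the 24 h array 14 members were called higher and 2 lower, and with 6 to 8 h as the early arrays 8 were called higher. The share of all probe sets called was not computed under these 2 settings, so these counts have no share to be read against.

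H2bc21, a cluster H2B gene of chromosome 3 that had shown no slope in either series, had the largest late minus early differences among the members. Its set 1447854_s_at ranged from 5.37 to 6.29 around a median of 5.99 at 1 to 8 h and stood at 7.33, 7.89 and 8.18 at 14, 19 and 24 h. All 3 late arrays were above all 8 early ones, and the difference was 1.87 ± 0.22 (SE; limma, adjusted p = 3.56e-05), or 1.69 without 24 h. The second set, 1455095_at, stood at 5.41, 6.17 and 5.86 at the late hours against at most 4.31 at 1 to 8 h. Its difference was 1.74 ± 0.18 (limma, adjusted p = 1.51e-05). At 0 h with Epo, 1447854_s_at stood at 6.87 and 1455095_at at 4.47, above their ranges of 1 to 8 h and below all late arrays. H1f2 on set 1416101_a_at stood at 9.61, 10.66 and 11.74, against 8.79 to 9.71 at 1 to 8 h. Its array of 14 h thus lay within the early range and that of 24 h was the highest of the 20. The difference of 1.50 ± 0.31 (adjusted p = 0.00219) was 0.97 without 24 h (adjusted p = 0.0175), and 1436994_a_at and 1438204_at gave 1.38 and 0.75. With 6 to 8 h as the early arrays neither 1416101_a_at (1.11; limma, adjusted p = 0.103) nor 1436994_a_at (1.08; limma, adjusted p = 0.108) was called.

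Other H2B, H2A and H2A.Z sets were higher late as well. H2az2 on 1436596_at stood at 7.11, 7.15 and 7.30 late, above all 8 early arrays, and differed by 1.34 ± 0.22 (limma, adjusted p = 0.000376), while its other set was not called (0.27 ± 0.15). The H2B set 1418072_at stood at 9.12, 8.66 and 9.72 against at most 8.45 early, a difference of 1.11 ± 0.24, and 1452540_a_at differed by 0.84 ± 0.17. Both calls ended with 6 to 8 h as the early arrays (0.84, limma, adjusted p = 0.0565, and 0.68, adjusted p = 0.0763). H2ac19 differed by 0.93 ± 0.31 and 0.91 ± 0.23, but its first set stood at 5.67 and 6.02 at 14 and 19 h against 7.59 at 24 h. Without 24 h neither H2ac19 set was called (0.34, adjusted p = 0.323, and 0.47, adjusted p = 0.0509).

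H2ax differed by 0.70 ± 0.17 and was not called without 24 h (0.53; limma, adjusted p = 0.0531). H3c11, H3c4 and H3c7 were not called, at 0.12 ± 0.27, 0.20 ± 0.16 and -0.094 ± 0.22. Both falls were on shared H3.3 sets, 1420376_a_at at -0.59 ± 0.096 (adjusted p = 0.000349) and 1455725_a_at at -0.44 ± 0.067 (adjusted p = 0.000221). The 3 other sets with the same 6 symbols, picked for this contrast after their values were seen, were higher by 0.26 to 0.55, so probe sets of 1 annotation ran in opposite directions. Beside the late values, the mean of the hepatocyte markers differed by -2.83 between late and early arrays and that of the erythroid markers by 0.74, and their part was not tested.

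**Figure D4:**
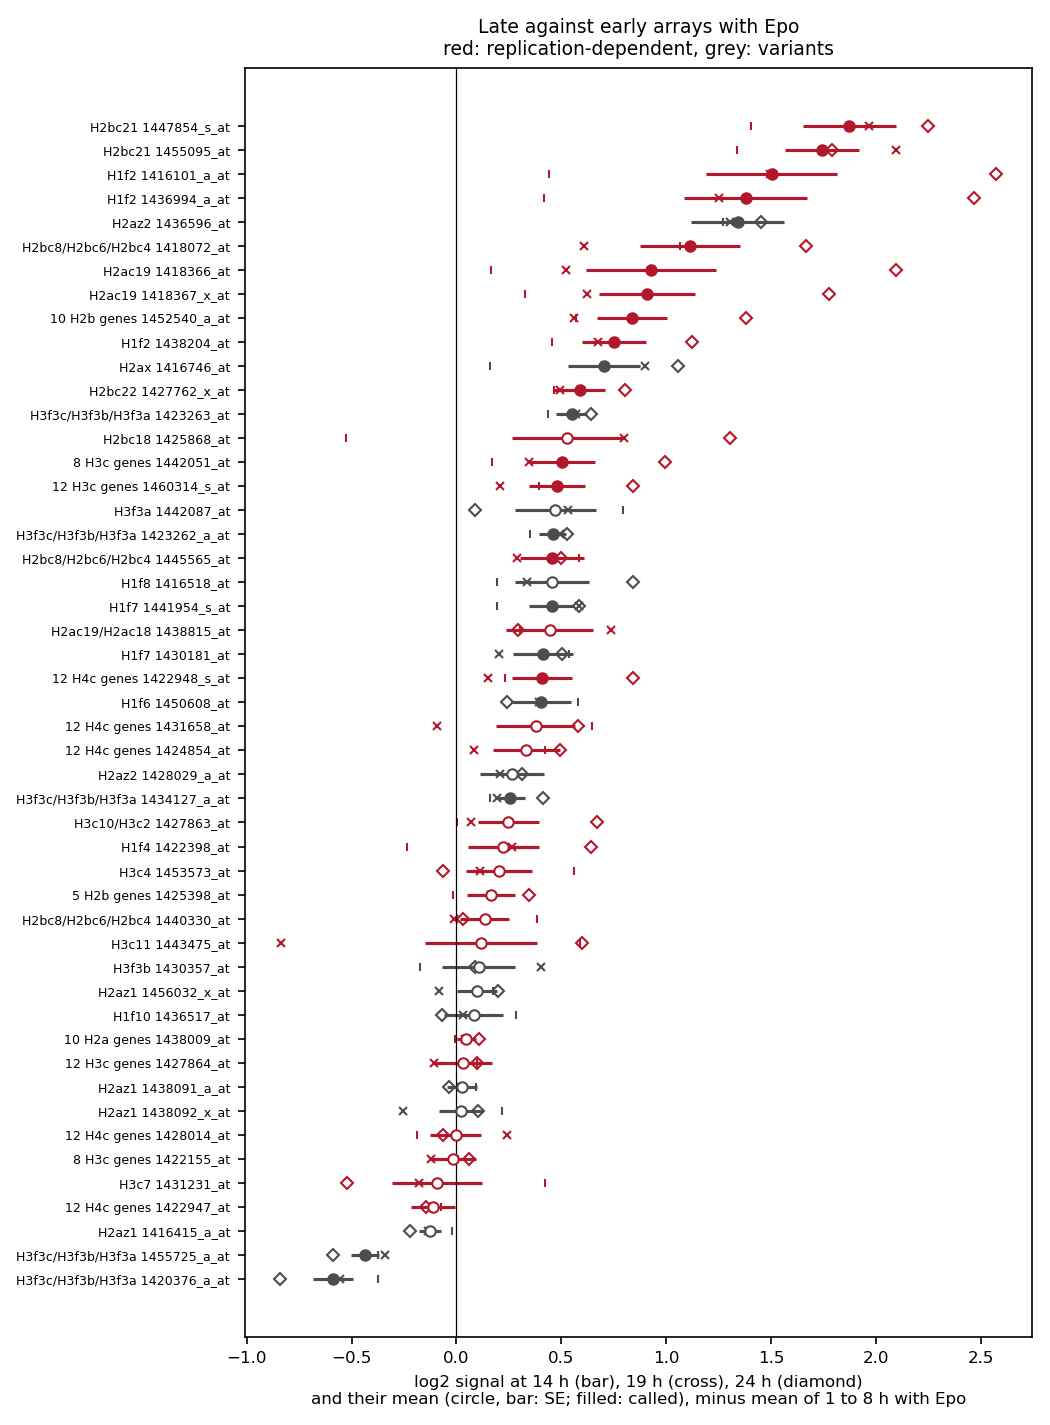
Log2 signal of each of the 49 histone probe sets at 14, 19 and 24 h with Epo (bar, cross, diamond) and their mean (circle with SE, filled where called), each minus the mean of 1 to 8 h with Epo; red is replication-dependent and grey is variant. H2bc21 stands highest at 1.87 and 1.74, the H1f2 and H2ac19 means are drawn up by the 24 h array, and 2 shared H3.3 sets lie below 0.

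At matched hours the members that differed most between the series were H3c4 and H3c7, the values known when the group was proposed. H3c4 without Epo had a lowest level of 4.97, a median of 5.36 and a highest of 6.43, and with Epo it ranged from 7.80 to 8.60 over 12 arrays around 7.98. H3c7 lay between 4.53 and 5.66 without Epo and between 7.15 and 8.18 with Epo. For neither gene did any array of one series reach the range of the other. Over 1 to 7 h the mean difference, Epo minus no Epo, was 2.69 for both, against 1.37 and 1.87 at 0 h. Over the same 1 to 7 h the mean of the hepatocyte markers differed by 0.95 and that of the erythroid markers by -0.34, and their part was not tested.

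Counting a mean of at least 1 with 1 sign in all 7 hours, 3 members were higher with Epo and 2 lower, where 2.37% and 2.62% of all probe sets met these limits. The third higher set was H3f3b alone, with a difference of 1.52 ± 0.29 (SD over 7 hours); its level was 6.40 at 0 h without Epo and 4.73 to 5.43 at the other hours. Lower were the 8-gene H3 set 1442051_at at -1.49 ± 1.23, a size uncertain near background with Epo, and H2ax at -1.05 ± 0.56. H3c11 at -1.59, 1418072_at at -1.41 and 1452540_a_at at -1.34 had the opposite sign at 1 of 7 hours and were not counted. As class medians, the difference was -0.077 for replication-dependent sets, -0.065 for variants and 0.041 over all probe sets. The 2 single-gene H3 sets thus lay on the other side of 0 from the 8-gene H3 annotation that lists the same genes. The 12-gene H3 annotation lists them too, and its sets lay above 0. These were 1427864_at at 0.51, higher with Epo at 7 of 7 hours, and 1460314_s_at at 0.11, higher at 4 of 7.

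At 0 h the series already differed, mostly on cluster genes. Replication-dependent sets were higher in the Epo series on 27 of 30, with a median difference of 0.45, whereas variants were higher on 9 of 19, with a median of -0.031, and 48.2% of all probe sets were higher. At least 1 apart were 6 members, all higher with Epo and all replication-dependent, and 0 were lower, where 1.81% and 0.802% of all probe sets lay that far apart. These were H3c7 (1.87), H3c4 (1.37), H3c11 (1.29), the H4 set 1422948_s_at (1.15), the H2B set 1452540_a_at (1.13) and the 12-gene H3 set 1460314_s_at (1.05). The group was proposed with the 0 h difference known, so these counts and medians only describe it and are no independent finding. There is 1 array per series at this hour, so these differences have no replicate check. With each series set against its own 0 h array, the median over replication-dependent sets at 1 to 7 h moved from -0.077 to -0.51. H3c4 and H3c7 then stood at 1.32 and 0.82, and H3c11 at -2.88. At 0 h the hepatocyte mean differed by 1.30 and the granulocyte mean by -1.04, Epo minus no Epo, and their part was not tested.

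The probe sets most like H3c4 over the 20 arrays were not those of cluster genes. Outside the histones the nearest were Mrpl14 (Pearson r = 0.985), a mitochondrial ribosomal protein gene, Sra1 (0.980) and Tmem60 (0.979). Mrpl14 lay between 7.82 and 8.58 without Epo and between 9.81 and 10.27 with Epo. Among the members H3c7 came first (0.974), then H2az1 on 1438091_a_at (0.915) and H3f3b (0.886). H3c11 instead had its highest correlations among the members with H2bc22 (0.920), 1452540_a_at (0.912) and 1418072_at (0.897). These values share arrays, series and time order and are a description with n = 20 arrays each.

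Genes that make or handle histone messages moved in both directions without Epo. Of 18 genes for transcription and 3′ processing of histone messages, 7 rose and 6 fell, with a median slope of 0.031, where 10.6% of all probe sets rose and 9.65% fell. Slbp, whose protein binds the stem-loop, stood at 11.56 at 2 h and 12.46 at 7 h and rose by 0.16 per hour (limma, adjusted p = 7.27e-06), and Npat and Casp8ap2, both needed at histone gene clusters, rose by 0.17 and 0.22. Zfp473 and Lsm10, of the U7 processing machinery, rose by 0.26 and 0.24, while Srrt (-0.30), Cpsf3 (-0.24), the nuclease that cuts histone messages, and Ncbp2 (-0.20) fell. With Epo 1 gene rose and 0 fell, Hinfp at 0.12, where 1.79% and 2.43% of all probe sets were called. The slope difference was called above 0 for 4 genes and below for 3, among them Slbp (-0.19), where 4.91% and 4.89% of all probe sets were called. Late with Epo 4 were higher and 3 lower, where 13.6% and 14.6% of all probe sets were called, with Cpsf3 at -1.29 and Tut7 at 0.80.

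Histone chaperones carry histones to chromatin. Of 17 chaperone genes 3 rose and 2 fell without Epo, counts near the 10.6% and 9.65% of all probe sets. Ubn1 rose by 0.33 per hour, Asf1a by 0.15 and Rbbp4 by 0.10, while Nap1l1 (-0.15) and Hira (-0.11) fell. None was called with Epo, where 1.79% of all probe sets were called higher and 2.43% lower. The slope difference, with Epo minus without, was called above 0 for 1 gene and below for 3, where 4.91% and 4.89% of all probe sets were called. Late with Epo Asf1b was higher by 0.89 (limma, adjusted p = 0.000136) and 5 others were lower, with Nasp at -0.72, where 13.6% and 14.6% of all probe sets were called. Of 4 variants outside the symbol rule, Macroh2a1 fell without Epo (-0.18 per hour) and was lower late with Epo (-1.56).

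The S phase list holds genes of DNA replication and its control. Of 29 S phase genes 18 rose and 2 fell without Epo, with a median of 0.094 per hour, where 10.6% and 9.65% of all probe sets did. Cdc6, which licenses origins, rose by 0.34, E2f8 by 0.28, Uhrf1 by 0.26 and Fen1 by 0.24. With Epo 1 rose (Tyms) and 1 fell (Tk1), where 1.79% and 2.43% of all probe sets were called. The slope difference was called below 0 for 12 genes and above for 0, with Uhrf1 at -0.28, where 4.89% and 4.91% of all probe sets were called. Late with Epo 6 were higher, a count not far from the 13.6% of all probe sets, and 0 were lower, where 14.6% of all were, with E2f8 at 1.07. Slbp is on both this list and that of message processing. These lists were not compared with the histone sets by a test.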

How the data were processed

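Biotin-labelled RNA of 20 samples was read on 1 Affymetrix array each. The deposited values are log2 signals per probe set, as their range of 1.37 to 14.53 shows; the authors' summarisation and scaling are not given in the sources used here. Of 45101 probe sets, 64 controls were left out. GEO's annotation gave 1 symbol to 34945, several to 932 and none to 9160. All 60 member genes were found in a reference gene table (GRCm38.p6), with no symbol changed. Of 137 entries of the gene and marker lists 16 had no probe set of their own; a listed gene was read on its 1-symbol probe set with the highest mean.

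Slopes of log2 signal on the hour were fitted for both series together (14 arrays, 1 to 7 h), and late against early arrays with Epo on 11, with limma 3.58.1 in R 4.3.3 (empirical Bayes with trend). A call needed a p under 0.05 after Benjamini-Hochberg adjustment over 45037 probe sets. Matched differences were counted at 1 on the log2 scale, without a test. The fits were tested on simulated data. Tables were made with pandas 2.3.3 and numpy 2.4.6, plots with matplotlib 3.10.9, under Python 3.11.15.

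The members and lists were chosen with earlier results of these data known. Named were H2ax, H2az1, H2az2, H3f3a, H3f3b, H1f10, H1f2, H3c4 and H3c7, the brightest 2 replication-dependent sets of each histone type, up to 6 called or counted members per direction and comparison, the 3 sets most like H3c4, and up to 4 genes per list and comparison; Slbp, Npat and Casp8ap2 were named after their values were seen. Alternatives were quantile or median scaling, brighter sets only, plain _at sets only, 1 set per gene, other variance models, other hours or time scales, the hour as a block and each hour left out.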

Additional observations from a re-analysis of the deposited data

Results flagged for a closer look

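One array lay outside the spread of its group. H3f3b (1430357_at) stood at 6.40 at 0 h without Epo, while the other 7 arrays of that series lay between 4.73 and 5.43. Its gap to the next array was past Dixon's limit for 8 arrays. In all, 60 tests were made, on the lowest and the highest array without Epo of 30 named probe sets. Chance alone marks about 1 in 20 such probe sets. The arrays with Epo were not looked at in this way.

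The slope from 1 to 7 h differed between the series, by limma's test of the difference, on 15 probe sets. With Epo minus without, in log2 units per hour, H3 sets lay at -0.56 (1442051_at), -0.44 (H3c11), -0.26 (1422155_at) and -0.15 (1460314_s_at). H2A.Z and H2A.X sets lay at -0.52 and -0.33 (H2az2) and -0.25 (H2ax). H2B sets lay at -0.41 (1418072_at) and -0.30 (H2bc22), and H2A sets at -0.32 and -0.23 (H2ac19) and at 0.044 (1438009_at). The H4 set 1422948_s_at lay at -0.16, and the shared H3.3 sets 1423263_at and 1423262_a_at at -0.11 each (-0.114 and -0.111). The call of 1422948_s_at was lost under 4 alternative settings (limma, adjusted p of up to 0.140) and that of 1460314_s_at under 8 (adjusted p of up to 0.173). The sets 1442051_at and 1422155_at lay below the median probe set, so the sizes of their differences are uncertain.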

How the results depend on the processing

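No call turned its direction under the alternatives run. Shares of all probe sets called were computed for the main fits only, so the counts below have no such share beside them. Of the members called, 13 of 25 slopes without Epo, 0 of 3 with Epo, 10 of 15 slope differences and 8 of 24 late differences kept their call under every alternative that tested them. With plain _at sets only, 31 members were tested. Without Epo 13 were called higher and 1 lower, and with Epo 1 higher and 1 lower. For the slope difference 8 were called below 0 and 0 above, and late 11 higher and 0 lower. With 1 set per gene, 18 members were tested. Called higher and lower were 6 and 1 without Epo, 1 and 1 with Epo, and 7 and 0 late. The slope difference was called below 0 on 5 and above 0 on 0. Members called lower without Epo (4) were 2 with quantile normalization, 1 without the variance trend, 2 with a robust trend and 7 over 0 to 7 h. With Epo, 2 were higher over 0 to 7 h and 2 on log2 of the hour; 4 were lower over 0 to 7 h, 1 over 1 to 8 h and 1 without the trend. The 1 difference above 0 was 0 with quantile normalization, without the trend, with a robust trend and on log2 of the hour. Late with 6 to 8 h as early arrays, 8 were higher. The median matched difference of replication-dependent sets was -0.51 from each series' own 0 h, and that of variants was 0.041 on plain _at sets. At 0 h the variant median was 0.21 on plain _at sets and 0.087 on brighter sets. Leaving out 1 hour in turn, members called higher and lower ranged over 13 to 21 and 1 to 6 without Epo, 0 to 2 and 0 to 3 with Epo, 0 to 5 and 10 to 16 for the difference, and 14 to 22 and 2 to 3 late; the class medians ranged over -0.18 to -0.060 and -0.083 to -0.018. With the hour as a replicate block, 17 differences were below 0 and 1 above. The shift of an array's median reached 0.14 on the log2 scale (24 h with Epo). Signal near background limits the 11 sets below the median probe set, of which 3 were called higher and 1 lower without Epo (1442051_at, 1422155_at and H1f4 among them).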
